A study of Mus musculus with 12 samples.

Results

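Mouse liver labelled DMH was compared with mouse liver labelled DM across all genes that passed a filter on low counts, in 4 libraries each, out of the 12 RNA-seq libraries of the series. The remaining 4 libraries carry the label CTL, and their levels are given as context. The title of the series names a red strain of the green alga Chlamydomonas reinhardtii that is rich in protoporphyrin IX and an anti-diabetic effect in liver. The labels used here spell out neither DM nor DMH, do not say which group received the alga, and give no strain, sex, age, dose or duration. They do not say whether a group's libraries came from different animals, so the p-values here describe the spread among these libraries, and part of that may be technical. The tissue label is liver, although the extraction text speaks of retinas. All 12 hepatocyte markers in the table were detected, and summed to 42810 to 61620 CPM (counts on a common library total after TMM scaling) in DMH and 57810 to 74270 CPM in DM. The 12 photoreceptor markers summed to 11.1 to 29.9 CPM in DMH and 5.31 to 20.4 CPM in DM. Most of that was Gnat1, while Crx, Prph2 and Rcvrn had no count in these 8 libraries.

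The 4 DMH libraries held 14376021 to 16631264 counts, the 4 DM libraries 13430122 to 17038017 and the 4 CTL libraries 15512699 to 16321134. Genes of the mitochondrial genome took 37.6%, 31.3%, 29.1% and 22.5% of the counts in DMH1 to DMH4, against 21.9%, 33.7%, 18.7% and 22.3% in DM1 to DM4. The groups overlapped, and a two-sided exact permutation test of the means gave p = 0.257, where 0.0286 is the smallest p that 4 against 4 allows. On the leading principal component of the 8 libraries, with 27.6% of the variance, the 4 DMH libraries had positive scores and the 4 DM libraries negative ones. DMH1 lay farthest out on it, and DMH3 lay apart on the second component, with 18.1%. Results that rest on these libraries or on DMH4 are given with and without them.

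The liver sets blood glucose by making it from amino acids and lactate and by storing it as glycogen. It burns fatty acids in mitochondria, exports fat in lipoproteins, and produces haem, largely for cytochrome P450 enzymes, from a pathway whose last intermediate is protoporphyrin IX. In insulin deficiency or resistance, textbook accounts describe high glucose output, with G6pc and Pck1 as the gene targets most often followed.

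All levels below are CPM scaled in the same way. Log2 fold changes are DMH over DM, written with their standard error (SE). A gene was called at a Benjamini-Hochberg adjusted p under 0.05 in edgeR's quasi-likelihood test across all 14643 genes tested. By this rule 5 genes, 0.0341% of those tested, were called, 4 of them higher (0.0273%) and 1 lower (0.00683%) in DMH. They are Gm24447 and Gm22068, which are short non-coding genes, and the protein-coding Clcn4, Sftpb and Cyp2c38. An unadjusted p under 0.05 was reached by 3019 genes (20.6%), 1518 higher (10.4%) and 1501 lower (10.3%), and the median log2 fold change of all genes was 0.03. The next gene in rank had an adjusted p of 0.0675, and 424 genes lay under 0.12. DESeq2, run as an alternative, called 673 of 13509 genes (4.98%). Below, called refers to the main edgeR test alone, and some genes not called by it passed 0.05 under an alternative. Ndufc1, Ndufc2, Cox8a, Sdhc, Etfa and Glud1 did so under 1 alternative each and G6pc under 2, while Pck1, Alas1 and Cpt1a did so under none.

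The short RNA genes are shown first because their reads may be shared with other genes. Gm24447 (ENSMUSG00000065911, annotated as misc_RNA, chr15:93234363-93234700, plus strand, 338 bases) begins like Rn7sk, the gene of 7SK RNA (chr9:78175303-78175633, minus strand, 331 bases). 7SK is an RNA polymerase III transcript that holds the transcription elongation factor P-TEFb in an inactive complex. The first 260 bases of each are printed, chr15:93234363-93234622 for Gm24447 and chr9:78175374-78175633 for Rn7sk. Capitals mark the 241 bases of Gm24447 that lie in 25-base words also found in Rn7sk, and the same bases in Rn7sk. Gm22068 (ENSMUSG00000096205, annotated as snRNA, chr11:87426716-87426879, plus strand, 164 bases) has all of its 25-base words in 6 other genes, among them Rnu1a1, a gene of the U1 spliceosomal RNA. It is printed without capitals. Coordinates and bases are those of GRCm38.

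Gm24447: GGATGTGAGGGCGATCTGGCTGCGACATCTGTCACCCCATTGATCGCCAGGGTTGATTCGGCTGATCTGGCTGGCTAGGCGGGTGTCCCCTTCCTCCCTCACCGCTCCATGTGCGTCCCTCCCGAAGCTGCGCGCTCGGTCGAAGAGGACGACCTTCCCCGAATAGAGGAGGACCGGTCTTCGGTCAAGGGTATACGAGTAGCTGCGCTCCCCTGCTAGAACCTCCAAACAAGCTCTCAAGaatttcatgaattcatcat

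Rn7sk: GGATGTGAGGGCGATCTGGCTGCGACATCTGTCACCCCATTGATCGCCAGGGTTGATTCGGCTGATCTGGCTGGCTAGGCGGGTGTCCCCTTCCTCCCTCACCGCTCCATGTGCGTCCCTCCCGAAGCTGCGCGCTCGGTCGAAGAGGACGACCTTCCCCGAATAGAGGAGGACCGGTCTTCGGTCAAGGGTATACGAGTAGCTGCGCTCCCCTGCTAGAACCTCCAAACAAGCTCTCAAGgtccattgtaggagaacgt

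Gm22068: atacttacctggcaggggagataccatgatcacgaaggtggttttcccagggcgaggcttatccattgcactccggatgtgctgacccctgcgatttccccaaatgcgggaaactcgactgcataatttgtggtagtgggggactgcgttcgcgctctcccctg

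Gm24447 had 13.3, 16.1, 11.7 and 11.2 CPM in DMH1 to DMH4, against 1.35, 1.69, 1.72 and 1.27 CPM in DM1 to DM4. The lowest DMH library lay far above the highest DM library, and CTL averaged 13.2 ± 3.33 CPM (SD, n = 4). The gene rose by 3.11 ± 0.23 on the log2 scale (edgeR adjusted p = 0.000132). It was called under every alternative that was run, including each fit that left out a library. Gm22068 had 2.17, 2.86, 2.25 and 2.56 CPM in DMH, against 0.406, 0.563, 0.43 and 0.445 CPM in DM. CTL averaged 2.44 ± 0.57 CPM, near DMH. Gm22068 rose by 2.40 ± 0.29 (adjusted p = 0.011), and its call was lost without DM1, DM3, DM4 or DMH2, with adjusted p-values of 0.051 to 0.0656.

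Since 69.1% of the 25-base words of Gm24447 occur in Rn7sk, the counts of the 2 genes cannot be fully told apart. Rn7sk itself had 37.0, 43.2, 29.4 and 26.6 CPM in DMH, against 21.2, 20.3, 11.4 and 16.5 CPM in DM, so its groups did not overlap either. Its log2 fold change was 0.97 ± 0.24, and it was not called (adjusted p = 0.115). Gm22068 shares at least 50% of its words with 20 genes, so its count may belong to any U1 copy. In the list of 14 abundant small RNA genes, 9 were tested. Of these 8 lay higher in DMH and 4 (44.4%) had groups that did not overlap, against 5.67% of all tested genes that lay wholly higher in DMH. The 4 include the called Gm24447 and Gm22068, and Rn7sk, which shares words with Gm24447, so they are not independent of the calls. The list's median log2 fold change was 0.79, or 0.50 without DMH2. The fourth gene that did not overlap was Rpph1, the RNA of ribonuclease P. It had 3.80, 7.64, 2.53 and 2.56 CPM in DMH, against 0.947, 1.69, 0.921 and 1.02 CPM in DM (1.85 ± 0.39, adjusted p = 0.106). Rn7s1, a gene of the signal recognition particle RNA whose words all occur in its copy Rn7s2, had overlapping groups (0.79 ± 0.25, adjusted p = 0.138).

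**Figure D1:**
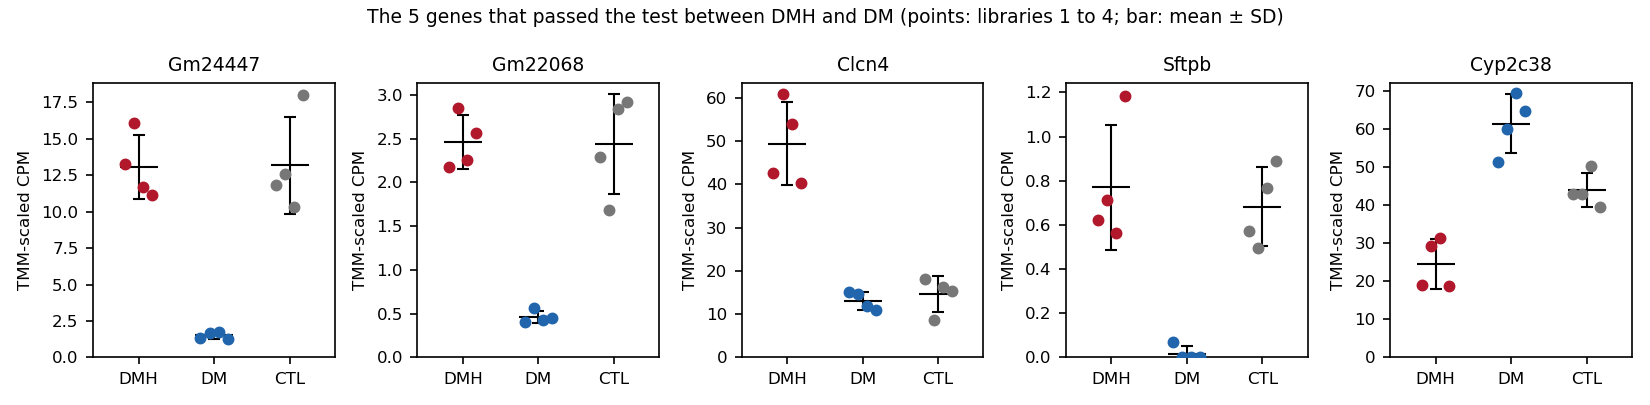
TMM-scaled CPM of the 5 genes called between DMH and DM, 1 panel per gene with its own axis starting at 0. Points are single libraries of DMH, DM and CTL, with mean and SD drawn in black. DMH and DM do not overlap in any panel, and CTL lies near DMH for Gm24447, Gm22068 and Sftpb and near DM for Clcn4.

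Clcn4 (ENSMUSG00000000605, chromosome 7, 7282309 to 7300851), a chloride-proton exchanger of endosomal membranes, had 42.6, 60.8, 53.9 and 40.4 CPM in DMH, against 15, 14.6, 11.9 and 10.9 CPM in DM. Every DMH library lay above every DM library and above the CTL mean of 14.6 ± 4.14 CPM. The gene rose by 1.92 ± 0.23 (adjusted p = 0.011). The call was lost without DM1, DM3, DM4 or DMH2, without DMH1 and DMH3 together (adjusted p = 0.0703), and when the mitochondrial percentage entered the model (adjusted p = 0.0642). Exons of Clcn4 overlap those of an unnamed gene on the opposite strand, ENSMUSG00000110243, and the sources used here do not say whether counting used strand. Of the 11 CLC genes 7 were tested, 5 higher and 2 lower, with a median of 0.18 that was 0.20 to 0.47 when 1 library was left out, highest without DMH3. Clcn2, a chloride channel of the plasma membrane, had 91.6, 80.8, 80.6 and 67.1 CPM in DMH, against 46.4, 40.1, 34.0 and 44.7 CPM in DM (0.95 ± 0.24, adjusted p = 0.115). Clcn7, the lysosomal exchanger, also had groups that did not overlap (0.42 ± 0.18, adjusted p = 0.205). Together 3 of 7 (42.9%) lay wholly higher in DMH, 1 of them the called Clcn4, against 5.67% of all tested genes.

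Sftpb (ENSMUSG00000056370, chromosome 6, 72304610 to 72314371) encodes surfactant protein B, best known from lung. It rests on few reads. It had 8, 10, 10 and 18 counts in DMH, against 1, 0, 0 and 0 counts in DM, while CTL averaged 0.682 ± 0.179 CPM. The ratio of the summed counts, scaled by library size, was 45.5, with a 95% interval of 7.77 to 1835 that covers counting error only. Sftpb was called higher (adjusted p = 0.0446), and kept its call when DMH3 or DMH4 was left out, but with any other single library left out the call was lost. With these counts in DM, it could pass the filter on low counts only through DMH and CTL. Its entry to the test was therefore not independent of the difference. The levels of lung epithelial markers as a whole were low in every library, at 31.7 to 39.0 CPM summed in DMH and 27.5 to 38.0 CPM in DM. Of the 6 lung markers tested 5 were higher, with a median of 0.44, or 0.28 without DMH1. Of the 6, 2 (33.3%) lay wholly higher in DMH, 1 of them the called Sftpb, against 5.67% of all tested genes. The part of lung cells in the result was not tested.

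Cyp2c38 (ENSMUSG00000032808, chromosome 19, 39389556 to 39463075), a cytochrome P450 of the Cyp2c family, was the 1 gene called lower. It had 19.0, 29.1, 31.3 and 18.7 CPM in DMH, against 51.3, 59.8, 69.5 and 64.6 CPM in DM. The groups lay apart, and CTL stood between them at 43.9 ± 4.47 CPM. The log2 fold change was -1.32 ± 0.19 (adjusted p = 0.0446), and most alternatives took it just over the threshold, for example 0.0523 with RLE size factors. Leaving out 1 library gave adjusted p-values of 0.0332 to 0.179. Of its 25-base words 17.3% occur in Cyp2c39, a gene of at most 2.16 CPM in these 8 libraries, and 5.34% in Cyp2c29. Cyp2c29 had 82.2, 92.1, 108 and 68.3 CPM in DMH, against 354, 152, 281 and 149 CPM in DM (-1.41 ± 0.32, adjusted p = 0.108). All 13 tested Cyp2c genes had fold changes below 0, with a median of -0.69. Of the 13, 5 (38.5%) lay wholly lower in DMH, 1 of them the called Cyp2c38, against 7.36% of all tested genes. In the most abundant of 5 equal bins of protein-coding genes that share was 16.5%. Without DMH1 and DMH3 the median was -0.38. The family shares reads, so single members are uncertain and do not count as independent genes. Cyp2c69, for instance, has 63.6% of its words in Cyp2c40.

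Among protein-coding genes that were not called, averaged at least 5 CPM and had groups that did not overlap, the 10 of lowest p in each direction were taken, and 19 of these 20 are named next. Those higher in DMH were Dmwd, Miip, Rogdi, Pcgf1, Tab1, Fzd4, Whamm, Ccdc9b and Rpap1, with log2 fold changes of 0.87 to 1.34 and adjusted p-values of 0.0687 to 0.106. Miip, named for inhibition of migration and invasion, had 79.7, 69.3, 60.0 and 48.2 CPM in DMH, against 24.8, 22.6, 27.4 and 26.8 CPM in DM (1.34 ± 0.22, adjusted p = 0.0694). Dmwd, a WD-repeat protein, had 34.8, 39.3, 36.4 and 36.3 CPM in DMH, against 17.8, 16.5, 13.9 and 20.2 CPM in DM (1.1 ± 0.18, adjusted p = 0.0687). The spread within DMH was small for Dmwd, while Miip varied more. Pcgf1 encodes a polycomb subunit (1.27 ± 0.22), Tab1 a partner of the kinase TAK1 (1.22 ± 0.21) and Fzd4 a Wnt receptor (0.87 ± 0.15). These 3 shared an adjusted p of 0.0733.

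Those lower in DMH were Mfsd2a, Mocs2, Gpd2, Eif2s2, Smim26, Ndufc2, Zmym1, Ywhaq, Ube2g1 and Eif4a3, with log2 fold changes of -2.27 to -0.66 and adjusted p-values of 0.0675 to 0.106. Mfsd2a, which imports lysophosphatidylcholine, had 16.7, 17.8, 30.2 and 44.6 CPM in DMH, against 194, 90.3, 150 and 82.9 CPM in DM (-2.24 ± 0.35, adjusted p = 0.0675). CTL averaged 174 ± 20.4 CPM, so DMH was the group apart from both others. Gpd2, the mitochondrial glycerol-3-phosphate dehydrogenase, had 1.40, 3.14, 4.11 and 2.04 CPM in DMH, against 16.5, 12.1, 7.98 and 15.3 CPM in DM (-2.27 ± 0.41, adjusted p = 0.097). Mocs2, of molybdenum cofactor synthesis, had 44.2, 39.4, 49.3 and 55.9 CPM in DMH, against 106, 82.3, 98.7 and 73.9 CPM in DM (-0.94 ± 0.16, adjusted p = 0.0733). Eif2s2, the beta subunit of the initiation factor eIF2, had 12, 14.2, 15.4 and 15.9 CPM in DMH, against 43.4, 37.3, 46.8 and 18.2 CPM in DM (-1.34 ± 0.26, adjusted p = 0.106). For Eif2s2 and Zmym1 the lowest DM library lay near the highest DMH library. Zmym1 overlaps the opposite-strand gene Gm12940.

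**Figure D2:**
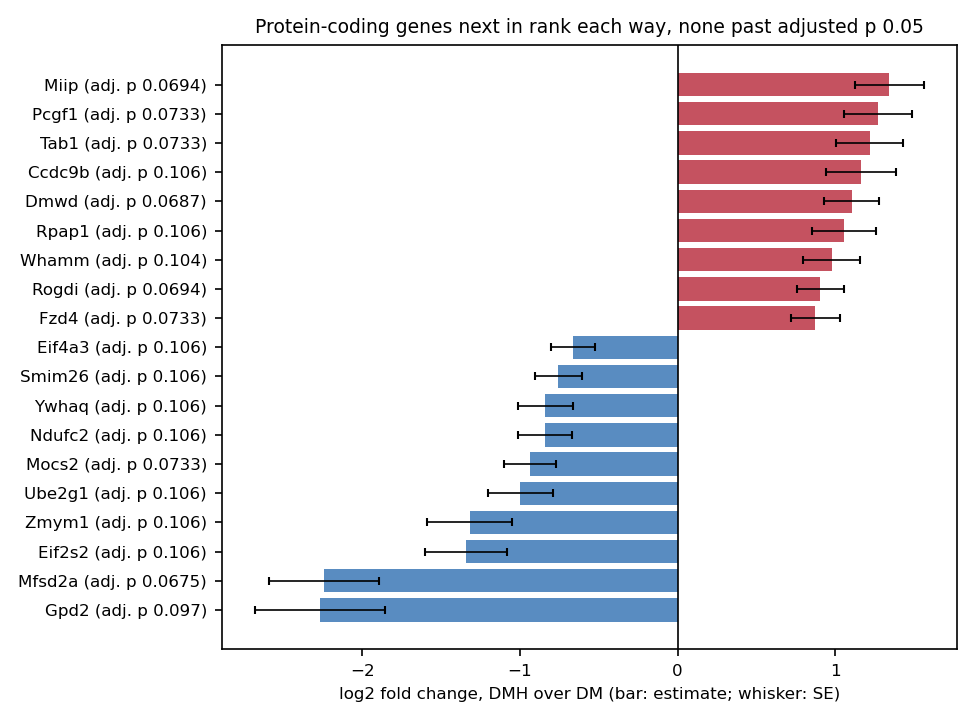
Log2 fold change, DMH over DM, with SE, of the 19 named protein-coding genes next in rank after the called ones. Bars to the right are higher in DMH and bars to the left lower, and none reaches an adjusted p of 0.05. Gpd2 and Mfsd2a lie below -2, and Miip is the highest at 1.34.

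DMH4 lay closer to DM than the other DMH libraries did on many of these genes. Without DMH4 the same test called 155 of 14957 genes (1.04%), 101 higher and 54 lower. These included 13 of the 19 genes just named, all 9 higher ones and Mfsd2a, Mocs2, Ywhaq and Eif4a3. The 19 had been picked from the same values as next in rank, so the 13 are no separate support. The 155 calls rest on a choice made after the values were seen, and no label sets DMH4 apart.

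Nuclear genes of oxidative phosphorylation were mostly lower in DMH, and none was called. Of 37 nuclear complex I subunits 34 had fold changes below 0, with a median of -0.36, and 13 (35.1%) had DMH wholly below DM, against 7.36% of all tested genes. All 13 subunits of complexes II and III were lower, with a median of -0.52 and 9 (69.2%) not overlapping. All 11 genes of complex IV and cytochrome c were lower, with a median of -0.57 and 8 (72.7%) not overlapping. Of 15 nuclear ATP synthase subunits 13 were lower, with a median of -0.46 and 6 (40%) not overlapping. As background, the most abundant of 5 equal bins of protein-coding genes had a median of -0.18, and 16.5% of them lay wholly lower in DMH. Without DMH1 and DMH3 the medians were -0.29 for complexes II and III, -0.36 for complex IV and -0.26 for ATP synthase, and without DMH1 alone the ATP synthase median was -0.27.

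Cox8a, a complex IV subunit, had 57.0, 106, 94.1 and 119 CPM in DMH, against 198, 152, 144 and 162 CPM in DM (-0.80 ± 0.21, adjusted p = 0.115). Ndufc1, a complex I subunit, had 25.3, 38.2, 24.1 and 35.4 CPM in DMH, against 58.6, 61.4, 51.8 and 47.6 CPM in DM (-0.84 ± 0.17, adjusted p = 0.106). Ndufc2 had 18, 29.6, 31.4 and 32.0 CPM in DMH, against 48.2, 52.7, 48.1 and 49.9 CPM in DM (-0.84 ± 0.17, adjusted p = 0.106). DMH1 was the lowest library for Cox8a and Ndufc2, and no DMH library reached the lowest DM library for any of these subunits. Sdhc, a membrane anchor of complex II, had 59.2, 89.2, 82.3 and 94.0 CPM in DMH, against 128, 129, 114 and 140 CPM in DM (-0.66 ± 0.16, adjusted p = 0.115). Atp5o, a subunit of the ATP synthase stalk, had a log2 fold change of -0.68 ± 0.17 (adjusted p = 0.115), and 52% of its 25-base words also occur in Donson. CTL levels of Cox8a (157 ± 12.8 CPM) and Sdhc (119 ± 4.9 CPM) were near those of DM.

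The 13 protein-coding genes of the mitochondrial genome ran the other way. All 13 had fold changes above 0, with a median of 0.30, none of the 13 had groups that did not overlap, and none was called. mt-Nd1, a complex I subunit, had 39842, 36796, 24575 and 20209 CPM in DMH, against 18849, 37086, 13914 and 18901 CPM in DM (0.45 ± 0.42, adjusted p = 0.566). DM2 lay as high as the upper DMH libraries. The median moved with single libraries: it was 0.10 without DMH1, 0.13 without DM3, 0.48 without DMH4, 0.76 without DM2 and 0.09 without DMH1 and DMH3. It turned to -0.16 with the mitochondrial percentage in the model. That percentage comes mostly from these same 13 genes, so this fit cannot say whether they differ. Nuclear copies of mitochondrial genes share their reads, so these levels are uncertain.

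Of 16 genes of the citric acid cycle 13 were lower, with a median of -0.44, and none was called. In all, 6 (37.5%) lay wholly lower in DMH, against 7.36% of all tested genes and 16.5% of the most abundant bin. Dld, the shared dihydrolipoamide dehydrogenase, had 27.8, 45.2, 42.2 and 40.6 CPM in DMH, against 70.2, 59.9, 61.2 and 56.6 CPM in DM (-0.67 ± 0.18, adjusted p = 0.115). Idh3g, a subunit of NAD-dependent isocitrate dehydrogenase, went the other way without overlap (0.33 ± 0.13, adjusted p = 0.195). Of 24 tested mitochondrial ribosomal proteins 17 were lower, with a median of -0.32, or -0.20 without DMH1 and -0.14 without DMH1 and DMH3.

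**Figure D3:**
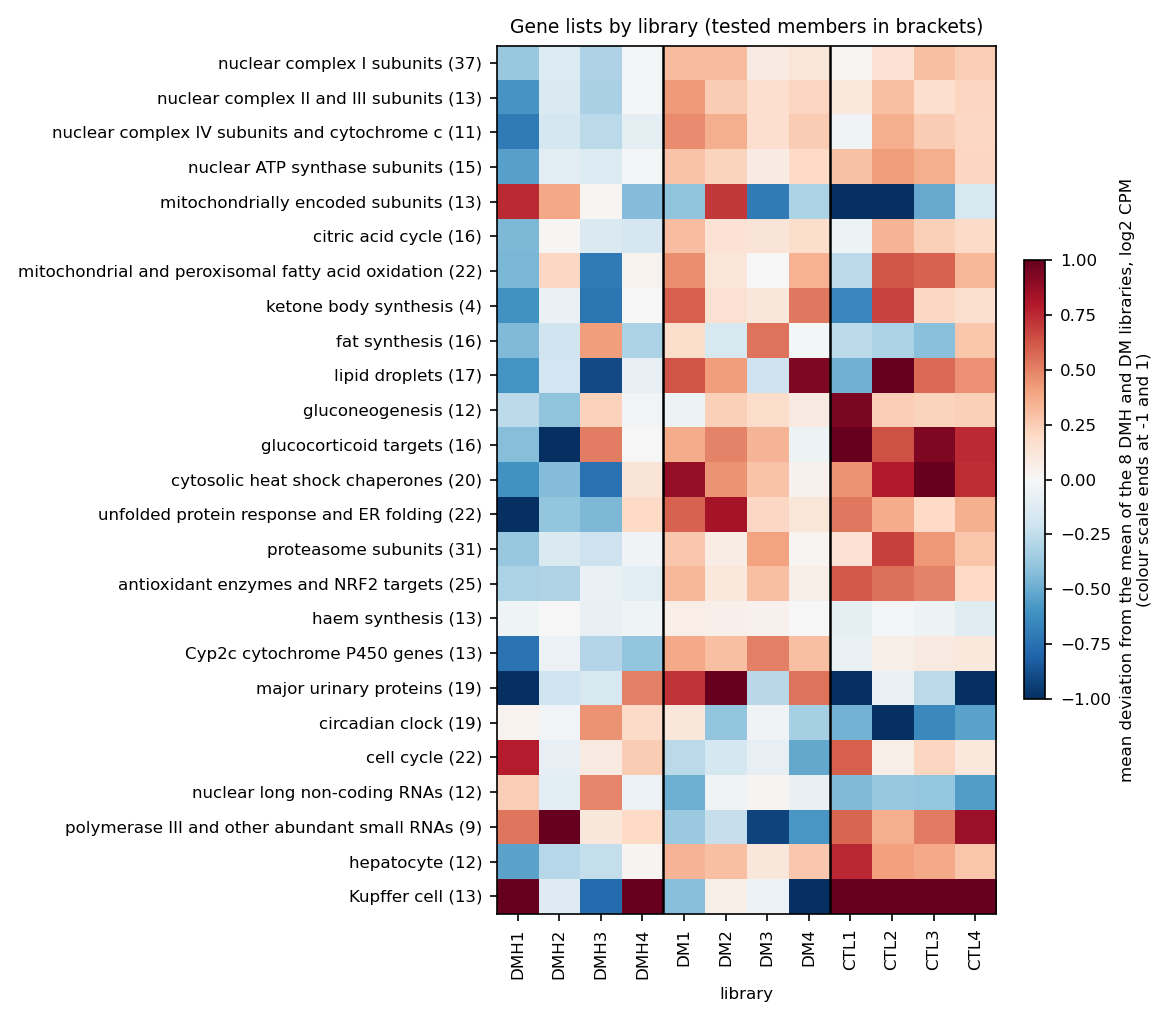
Mean log2 CPM of 25 gene lists in each library, as the deviation from the mean of the 8 DMH and DM libraries. Columns are DMH1 to DMH4, DM1 to DM4 and CTL1 to CTL4, with blue for lower and red for higher, and the colour scale ends at -1 and 1. For complex IV the deviations are -0.71, -0.18, -0.27 and -0.10 in DMH1 to DMH4, against 0.47, 0.36, 0.17 and 0.25 in DM1 to DM4.

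Among genes of glucose supply, G6pc, the glucose-6-phosphatase that releases glucose, had 40.1, 35.1, 56.4 and 120 CPM in DMH, against 156, 388, 249 and 170 CPM in DM. All DMH libraries lay below all DM libraries, and CTL averaged 139 ± 29.8 CPM. The log2 fold change was -1.94 ± 0.41 and the gene was not called (adjusted p = 0.106). Without DMH4 it was -2.43, with an adjusted p of 0.0368. Pck1, the cytosolic phosphoenolpyruvate carboxykinase, had 1452, 969, 2255 and 2677 CPM in DMH, against 2493, 3625, 2588 and 2826 CPM in DM (-0.65 ± 0.31, adjusted p = 0.259), and the groups overlapped. Pck2, its mitochondrial form, had 6.91, 6.28, 5.86 and 6.37 CPM in DMH, against 1.76, 3.94, 2.09 and 1.46 CPM in DM (1.46 ± 0.30, adjusted p = 0.106). Foxo1, a transcription factor that insulin signalling keeps out of the nucleus, had groups that did not overlap (-0.52 ± 0.25, adjusted p = 0.262). Ppargc1a, a coactivator of mitochondrial and gluconeogenic genes, had 9.08, 5.71, 23.7 and 3.29 CPM in DMH, against 4.13, 6.92, 12.4 and 7.95 CPM in DM (0.41 ± 0.60, adjusted p = 0.733), and its log2 fold change was -0.37 without DMH3. Of the 12 gluconeogenesis genes 8 were lower and 4 higher, with a median of -0.20. That median was -0.12 without DMH2 or DM3, -0.31 without DMH3, and -0.39 without DMH1 and DMH3. It turned to 0.03 with the mitochondrial percentage in the model.

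Ppp1r3b, which targets protein phosphatase 1 to glycogen, had 25.9, 19.1, 64.1 and 66.2 CPM in DMH, against 194, 179, 67.6 and 180 CPM in DM (-1.82 ± 0.46, adjusted p = 0.115). DM3 was far below the other DM libraries and just above DMH4. Of 15 genes of glucose uptake and glycolysis 10 were lower, with a median of -0.33. Of 11 tested glycogen genes 6 were lower, with a median of -0.05 that ran from -0.23 without DM2 to 0.03 without DMH1. Igfbp1, a secreted IGF-binding protein that insulin represses, had 5.36, 6.93, 12.3 and 42.5 CPM in DMH, against 51.1, 118, 40.1 and 22.6 CPM in DM (-1.78 ± 0.76, adjusted p = 0.217). Its groups overlapped through DMH4 and DM4. Of 20 genes of insulin and IGF signalling 11 were higher, with a median of 0.09 that ran from -0.06 without DMH4 to 0.14 without DMH1 and was -0.00068 without DM1. Tsc2, an inhibitor of mTORC1, had groups that did not overlap (0.58 ± 0.14, adjusted p = 0.115), though its exons overlap Pkd1 on the opposite strand.

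In amino acid breakdown, Glud1, glutamate dehydrogenase, had 344, 372, 414 and 448 CPM in DMH, against 747, 542, 719 and 743 CPM in DM (-0.80 ± 0.17, adjusted p = 0.106). Tat, tyrosine aminotransferase, had 250, 248, 562 and 457 CPM in DMH, against 1126, 1090, 1318 and 856 CPM in DM (-1.53 ± 0.37, adjusted p = 0.115). Neither gene's groups overlapped. The list as a whole was mixed, with 12 of 22 tested genes lower, 10 higher and a median of -0.14, which lay between -0.26 and -0.03 when 1 library was left out. Of 8 urea cycle genes 7 were lower, with a median of -0.35 that was -0.17 without DMH1 and -0.63 without DMH3.

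**Figure D4:**
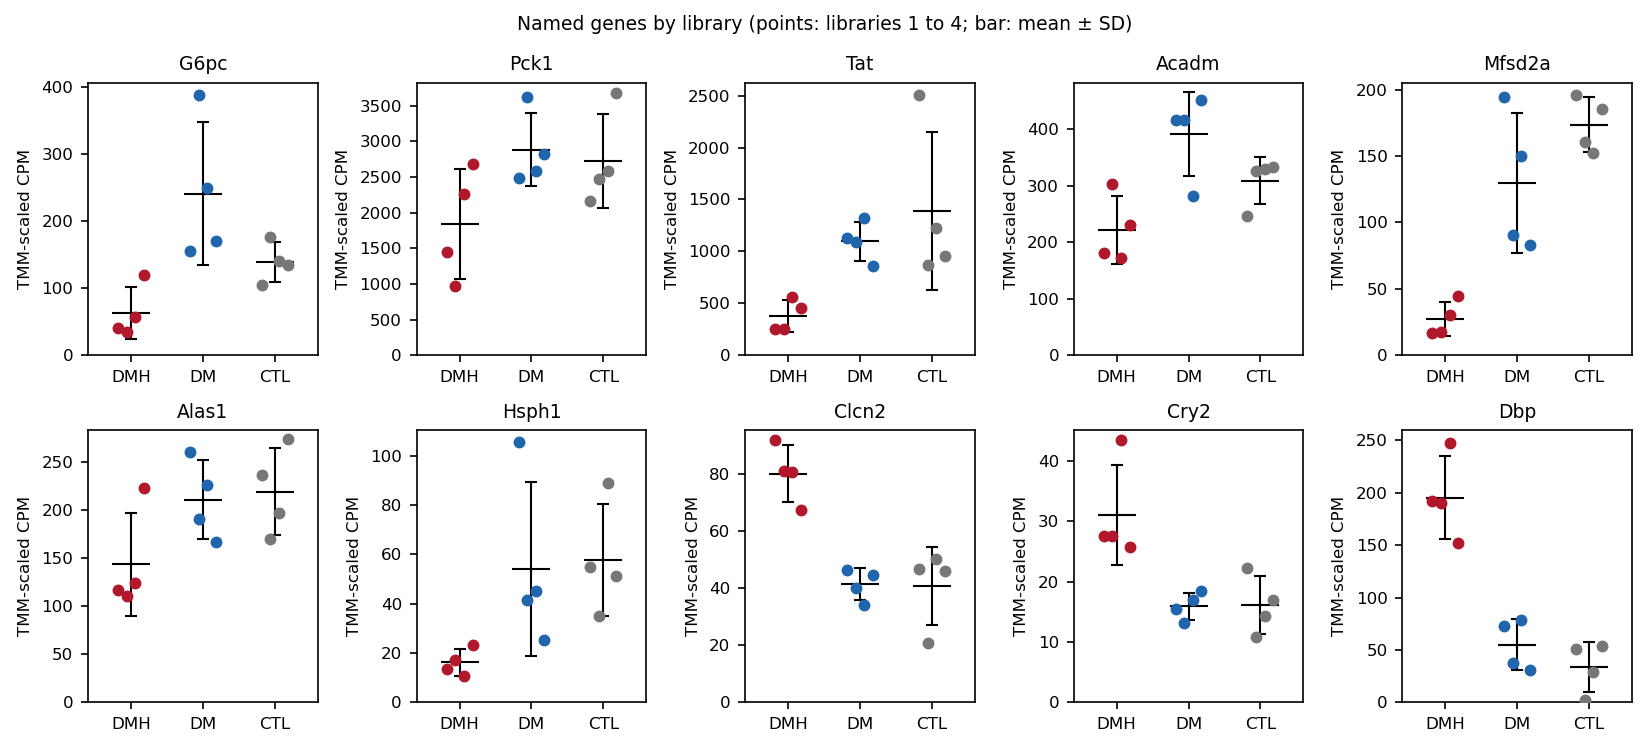
TMM-scaled CPM of 10 named genes by library, each panel with its own axis starting at 0, points for single libraries of DMH, DM and CTL, and mean and SD in black. G6pc, Tat, Mfsd2a and Hsph1 lie lower in every DMH library than in any DM library, and Clcn2, Cry2 and Dbp lie higher. Pck1, Acadm and Alas1 overlap between DMH and DM.

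Fatty acid oxidation was lower in 20 of 22 genes, with a median of -0.54. None was called, and 6 genes (27.3%) lay wholly lower in DMH, against 7.36% of all tested genes and 16.5% of the most abundant bin. Without DMH1 and DMH3 the median was -0.22. Etfa, a subunit of the electron transfer flavoprotein, had 180, 277, 224 and 279 CPM in DMH, against 388, 455, 377 and 362 CPM in DM (-0.72 ± 0.18, adjusted p = 0.115). Acaa2, the mitochondrial thiolase of the last step, had 183, 331, 218 and 364 CPM in DMH, against 646, 408, 467 and 474 CPM in DM (-0.86 ± 0.24, adjusted p = 0.122). Acadm, medium-chain acyl-CoA dehydrogenase, had 181, 303, 172 and 230 CPM in DMH, against 416, 417, 281 and 451 CPM in DM (-0.82 ± 0.22, adjusted p = 0.115). DMH1 and DMH3 were the lowest libraries for Acaa2 and Acadm, and DMH2 overlapped DM3 for Acadm. Cpt1a, the gate of fatty acid entry into mitochondria, did not follow the list, with 145, 217, 181 and 216 CPM in DMH, against 173, 205, 220 and 253 CPM in DM (-0.17 ± 0.18, adjusted p = 0.639). The 4 genes of ketone body synthesis were all lower, with a median of -0.70, or -0.44 without DMH1 and DMH3. Acat1, which makes acetoacetyl-CoA there, was the 1 of them whose groups did not overlap (-0.72 ± 0.20, adjusted p = 0.12).

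Fat synthesis genes were mixed, 10 of 16 tested lower with a median of -0.37 that was 0.02 without DM3 and -0.12 without DMH1. Fasn, fatty acid synthase, had 35.3, 67.7, 87.6 and 53.2 CPM in DMH, against 48.2, 43.9, 149 and 44.8 CPM in DM (-0.23 ± 0.48, adjusted p = 0.819), and without DM3 its log2 fold change was 0.45. Srebf1, the transcription factor of fat synthesis, had 79.6, 96.0, 136 and 48.8 CPM in DMH, against 42.5, 42.3, 101 and 46.3 CPM in DM (0.64 ± 0.42, adjusted p = 0.407). DM3 stood apart in DM for both. Me1, the malic enzyme that supplies NADPH, had 9.86, 27.8, 19.7 and 31.1 CPM in DMH, against 111, 35.4, 138 and 43.4 CPM in DM (-1.89 ± 0.55, adjusted p = 0.131). The desaturases Fads1 (-0.78 ± 0.24) and Fads2 (-0.67 ± 0.21) had groups that did not overlap, with adjusted p-values of 0.133 and 0.143. The 20 genes of cholesterol synthesis and uptake split into 11 lower and 9 higher with a median of -0.06, which ran from -0.34 without DMH2 to 0.52 without DM3 and turned in 7 of 24 alternatives.

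Of 17 lipid droplet genes 13 were lower, with a median of -0.60. Cidea, a protein of lipid droplet fusion, had 2 counts in DMH in all, against 284 counts in DM, of which 222 were in DM4. The scaled DMH over DM ratio of these counts was 0.00696, with a 95% interval of 0.000839 to 0.0254 for counting error only. With these counts in DMH, Cidea could pass the filter on low counts only through the other groups. Plin5, a perilipin that ties droplets to mitochondria, had 11.1, 14.9, 10.6 and 25.2 CPM in DMH, against 47.2, 33.4, 18 and 39.0 CPM in DM (-1.15 ± 0.33, adjusted p = 0.126). Lipe, hormone-sensitive lipase, was higher in every DMH library, with 19.9, 26.4, 16.6 and 15.8 CPM in DMH, against 8.59, 9.65, 6.82 and 12.3 CPM in DM (1.07 ± 0.23, adjusted p = 0.106). Adipocyte and mesothelial markers summed to 1.71 to 6.05 CPM in DMH and 11.4 to 79.1 CPM in DM, with Plin1 at 0 in all 8 libraries. In DM most of that sum was Cfd, the complement factor adipsin, which had 3.10, 0.428, 0.563 and 4.14 CPM in DMH, against 10.1, 34.6, 13.8 and 78.4 CPM in DM (-4.06 ± 1.08, adjusted p = 0.115). Their part in the lipid droplet values was not tested.

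In bile acid metabolism, Cyp7a1, the rate-limiting enzyme of synthesis, had 37.7, 50.6, 348 and 31.7 CPM in DMH, against 38.2, 98.9, 89.2 and 91.2 CPM in DM (0.56 ± 0.69, adjusted p = 0.683). The sign rests on DMH3, and without that library the log2 fold change was -0.97. Abcb11, the bile salt export pump, had 167, 153, 195 and 115 CPM in DMH, against 472, 415, 508 and 174 CPM in DM (-1.32 ± 0.43, adjusted p = 0.143). DM4 lay within the DMH range. Of the 18 genes of bile acid synthesis and transport 13 were lower, with a median of -0.17, or -0.08 without DM2.

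The haem pathway, which ends in protoporphyrin IX and its conversion to haem, showed no common shift. Of 13 haem synthesis genes 9 were lower and 4 higher, with a median of -0.12, which lay between -0.21 and -0.05 when 1 library was left out. Alas1, 5-aminolevulinate synthase, the rate-limiting first enzyme in liver, had 117, 111, 124 and 223 CPM in DMH, against 260, 191, 226 and 167 CPM in DM. DMH1 to DMH3 lay below all DM libraries and DMH4 lay among them, for a log2 fold change of -0.56 ± 0.25 (adjusted p = 0.232). Alad, the next enzyme, had 192, 160, 123 and 167 CPM in DMH, against 157, 172, 171 and 176 CPM in DM (-0.07 ± 0.19, adjusted p = 0.863). Fech, ferrochelatase, which puts iron into protoporphyrin IX, had 63.0, 79.4, 72.0 and 62.2 CPM in DMH, against 84.7, 81.3, 73.6 and 61.9 CPM in DM (-0.12 ± 0.15, adjusted p = 0.665).

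Cpox, coproporphyrinogen oxidase, had a log2 fold change of -0.66 ± 0.23 (adjusted p = 0.151). Clpx, a mitochondrial unfoldase that acts on the first enzyme of the pathway, had 42.9, 57.3, 42.1 and 53.6 CPM in DMH, against 105, 127, 60.6 and 181 CPM in DM (-1.27 ± 0.34, adjusted p = 0.115). Slc25a38, a mitochondrial glycine importer, ran the other way with 39.9, 43.2, 42.5 and 28.3 CPM in DMH, against 22.7, 18.6, 18 and 25.4 CPM in DM (0.86 ± 0.17, adjusted p = 0.106). Among 18 genes of haem breakdown and iron handling 9 were higher and 9 lower, with a median of -0.04 that ran from -0.09 without DMH1 to 0.050 without DM3 and was 0.12 with the mitochondrial percentage in the model. Hmox1, the inducible haem oxygenase, had 15.4, 4.71, 4.84 and 16.8 CPM in DMH, against 9.13, 9.73, 8.72 and 4.71 CPM in DM (0.37 ± 0.45, adjusted p = 0.681). Fth1, the ferritin heavy chain, had 460, 590, 603 and 658 CPM in DMH, against 896, 705, 1040 and 828 CPM in DM (-0.59 ± 0.20, adjusted p = 0.153).

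No gene of the protein-folding lists was called, and most had fold changes below 0. The list of 20 heat shock chaperones and their partners is mostly cytosolic, but Hspd1 and Hspe1 are mitochondrial. Of the 20, 19 had fold changes below 0, with a median of -0.77. In all, 7 (35%) lay wholly lower in DMH, against 7.36% of all tested genes and 16.5% of the most abundant bin. Hsph1, a large chaperone that recharges HSP70, had 13.7, 17.4, 10.5 and 23.3 CPM in DMH, against 106, 41.3, 45.0 and 25.2 CPM in DM (-1.74 ± 0.43, adjusted p = 0.115). Hsp90aa1, the stress-induced HSP90, had 8.77, 12.8, 5.86 and 14.0 CPM in DMH, against 35.1, 19.4, 23.8 and 85.6 CPM in DM (-1.99 ± 0.47, adjusted p = 0.115), and 59.3% of its words occur in the pseudogene Gm12346. Bag3, a co-chaperone of HSP70, had 16.8, 14.5, 14.9 and 20.6 CPM in DMH, against 43.4, 33.8, 28.9 and 20.4 CPM in DM (-0.92 ± 0.21, adjusted p = 0.11). Hsph1 and Hsp90aa1 did not overlap between the groups, whereas for Bag3 DMH4 lay just above DM4.

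Of 22 genes of the unfolded protein response and folding in the endoplasmic reticulum 19 were lower, with a median of -0.74, or -0.39 without DMH1 and DMH3, and 5 (22.7%) lay wholly lower, beside the same 7.36% and 16.5%. Pdia6, a protein disulfide isomerase, had 25.6, 65.8, 66.6 and 91.9 CPM in DMH, against 106, 153, 112 and 111 CPM in DM (-0.95 ± 0.31, adjusted p = 0.143). Pdia4, of the same family, had 53.7, 88.9, 62.0 and 113 CPM in DMH, against 152, 211, 104 and 147 CPM in DM (-0.95 ± 0.25, adjusted p = 0.115). Hspa5, the HSP70 of the endoplasmic reticulum, is named outside the rule, after its values were seen. It had 30.1, 34.7, 43.5 and 183 CPM in DMH, against 280, 267, 259 and 120 CPM in DM (-1.67 ± 0.55, adjusted p = 0.146). DMH4 and DM4 each stood apart from the other libraries of their group and crossed, and without DMH4 the log2 fold change was -2.65 (adjusted p = 0.0261).

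Because these genes lay lower together, their promoters were searched for the motifs by which textbook accounts define the 2 responses. The windows run from 250 bases before to 50 after the start of transcription in RefSeq's GRCm38.p6 table, which held a window for 16 of the 20 chaperone genes and 19 of the 22 genes of the unfolded protein response. The heat shock element was searched as GAA, TTC and GAA in this order with 2 free bases between each, and the endoplasmic reticulum stress element as CCAAT and CCACG with 9 free bases between them, each on both strands. The first was in 4 of the 16 chaperone windows (25%), those of Hsph1, Hspe1, Hspd1 and Chordc1, and in 0.662% of all 27025 genes in the table. The windows of Hspe1 and Hspd1 share sequence. The second was in 7 of the 19 windows (36.8%), those of Hspa5, Hsp90b1, Calr, Canx, Pdia6, Dnajc3 and Creld2, and in 0.137% of all genes. Neither was in any window of the complex I or proteasome lists. The windows below are shown for Hsph1 (chr5:149636287-149636586, minus strand), Pdia6 (chr12:17266339-17266638, plus strand) and Hspa5 (chr2:34771840-34772139, plus strand), from 5′ to 3′ along the gene. Capitals mark the match, at bases 37 to 49 from the start in Hsph1, -98 to -80 in Pdia6 and -65 to -47 in Hspa5. In Hsph1 the match is on the opposite strand. A match describes the letters only.

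Hsph1: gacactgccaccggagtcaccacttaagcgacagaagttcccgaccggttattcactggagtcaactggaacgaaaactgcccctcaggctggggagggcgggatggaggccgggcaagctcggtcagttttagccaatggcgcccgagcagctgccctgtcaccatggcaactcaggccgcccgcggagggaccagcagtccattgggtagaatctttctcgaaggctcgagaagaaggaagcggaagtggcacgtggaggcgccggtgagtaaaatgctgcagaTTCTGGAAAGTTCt

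Pdia6: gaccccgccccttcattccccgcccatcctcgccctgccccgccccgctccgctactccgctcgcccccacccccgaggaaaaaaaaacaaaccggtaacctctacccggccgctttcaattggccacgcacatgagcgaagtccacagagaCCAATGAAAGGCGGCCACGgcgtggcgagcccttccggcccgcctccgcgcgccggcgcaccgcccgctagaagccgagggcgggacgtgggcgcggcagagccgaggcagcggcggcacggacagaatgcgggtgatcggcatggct

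Hspa5: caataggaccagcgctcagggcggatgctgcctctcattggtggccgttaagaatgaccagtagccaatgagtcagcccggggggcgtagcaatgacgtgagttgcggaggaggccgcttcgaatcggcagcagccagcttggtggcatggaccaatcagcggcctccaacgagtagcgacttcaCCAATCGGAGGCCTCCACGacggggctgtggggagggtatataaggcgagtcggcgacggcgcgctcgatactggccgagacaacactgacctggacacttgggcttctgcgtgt

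Genes of both lists lay lower with and without a match. The median log2 fold change was -0.55 for the chaperone genes with a match to the heat shock element and -0.90 for those without one. Those without one include Hspa1a (-2.02) and Hspa1b (-1.68). The median was -0.85 for the unfolded protein response genes with a match to the stress element and -0.68 for those without one. Over all tested genes with a window, it was 0.01 for the 57 genes with the first match and 0.05 without it. For the second match it was -0.30 for 19 genes and 0.05 without it. Only 1 exact pattern of each element was searched, so a gene without a match is not shown to lack the element.

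Of 31 proteasome subunits 30 were lower, with a median of -0.33, or -0.21 without DMH1 and DMH3, none was called, and 12 (38.7%) lay wholly lower, against 7.36% of all tested genes and 16.5% of the most abundant bin. Psma6, of the catalytic core, had 40.3, 47.3, 47.8 and 59.5 CPM in DMH, against 78.9, 74.5, 81.1 and 63.7 CPM in DM (-0.61 ± 0.15, adjusted p = 0.115). Of 25 antioxidant enzymes and NRF2 targets 21 were lower, with a median of -0.45, none was called, and 10 (40%) lay wholly lower, beside the same shares. Prdx3, the mitochondrial peroxiredoxin, had 21, 38.4, 37.3 and 41.1 CPM in DMH, against 66.2, 53.4, 50 and 64.2 CPM in DM (-0.76 ± 0.21, adjusted p = 0.115). Glrx, glutaredoxin, had 3.03, 1.79, 7.88 and 7.10 CPM in DMH, against 34.0, 29.8, 10.2 and 9.61 CPM in DM (-2.07 ± 0.58, adjusted p = 0.124). DM1 and DM2 were its high libraries.

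The 24 lysosome and autophagy genes were split, 15 lower and 9 higher, with a median of -0.17 that ran from -0.28 without DMH4 to -0.09 without DMH3. Gabarapl1, an ATG8-family autophagosome protein, had a log2 fold change below 0 (-0.81 ± 0.19, adjusted p = 0.114). Mcoln1, the lysosomal calcium channel, was higher in every DMH library, with 47.0, 33.9, 71.1 and 45.8 CPM in DMH, against 26.0, 26.9, 25.7 and 29.2 CPM in DM (0.87 ± 0.20, adjusted p = 0.112). The 18 p53 targets had 9 genes each way and a median of -0.05, which ran from -0.23 without DM1 to 0.13 without DM3 and also turned without DM2.

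Of 16 glucocorticoid targets 10 were lower, with a median of -0.75, and none was called. In all, 5 (31.2%) lay wholly lower, against 7.36% of all tested genes and 16.5% of the most abundant bin. The median was -0.37 without DM3 and -0.43 without DMH2. Dusp1, a phosphatase of MAP kinases, had 5.67, 7.71, 15.8 and 33.3 CPM in DMH, against 102, 86.8, 40.6 and 38.4 CPM in DM (-2.10 ± 0.55, adjusted p = 0.115). Sgk1, a kinase, had 6.05, 9.71, 10.1 and 13.3 CPM in DMH, against 19.8, 15.3, 31.1 and 12.4 CPM in DM (-1.0 ± 0.30, adjusted p = 0.132). Tat, given above, is on this list as well. Exons of Dusp1 overlap Ergic1 on the opposite strand.

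The 19 clock genes showed no common shift, 10 higher and 9 lower, with a median of 0.14 that ran from -0.09 without DMH3 to 0.46 without DM3 and was -0.01 without DM4. Yet 4 of them (21.1%) lay wholly higher in DMH, against 5.67% of all genes. Cry2, a repressor of the clock, had 27.6, 27.6, 43.5 and 25.8 CPM in DMH, against 15.5, 13.1, 16.9 and 18.4 CPM in DM (0.96 ± 0.24, adjusted p = 0.115). Dbp, a clock output factor, had 193, 190, 248 and 152 CPM in DMH, against 73.2, 37.2, 78.5 and 31.0 CPM in DM (1.83 ± 0.69, adjusted p = 0.172). Dbp stood above its CTL mean of 34.1 ± 24 CPM in every DMH library. Exons of Dbp overlap Sphk2 on the opposite strand.

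Beyond the Cyp2c family, 18 of 26 tested P450 genes and their receptors were lower, with a median of -0.22 that was -0.09 without DMH3 and 0.02 without DMH1 and DMH3. Cyp2j5, an epoxygenase of fatty acids, had 99.1, 149, 150 and 197 CPM in DMH, against 316, 245, 246 and 344 CPM in DM (-0.95 ± 0.21, adjusted p = 0.106). Cyp1a2, the caffeine-metabolising P450, had groups that did not overlap (-0.68 ± 0.23, adjusted p = 0.147). Nr1i3, the receptor CAR, was higher on average (0.52 ± 0.21, adjusted p = 0.185).

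Among secreted proteins, Alb, serum albumin, had 19533, 14974, 16331 and 22876 CPM in DMH, against 20933, 28201, 21554 and 23295 CPM in DM (-0.35 ± 0.27, adjusted p = 0.487). Ttr, transthyretin, had 2293, 3163, 3053 and 3783 CPM in DMH, against 5747, 4716, 4822 and 5117 CPM in DM (-0.73 ± 0.26, adjusted p = 0.156). Ttr did not overlap between the groups, while Alb overlapped through DMH4. All 19 tested major urinary protein genes had fold changes below 0, with a median of -0.84, but none had groups that did not overlap. That median was -0.48 without DMH1 and -0.36 without DMH1 and DMH3, and the genes are near copies of each other. Mup19 had 33.8, 501, 687 and 1151 CPM in DMH, against 1896, 2006, 1046 and 2248 CPM in DM (-1.60 ± 1.18, adjusted p = 0.467). Acute phase proteins were higher in 15 of 21 genes, with a median of 0.19 that ran from 0.02 without DMH1 to 0.34 without DM3, and was 0.31 without DM2 and 0.64 with the mitochondrial percentage in the model. Orm2, an orosomucoid that shares reads with near copies, had 152, 21, 66.3 and 83.8 CPM in DMH, against 12.6, 13.6, 17.3 and 11.1 CPM in DM (2.56 ± 1.02, adjusted p = 0.191). Crp, the C-reactive protein, ran the other way (-0.74 ± 0.31, adjusted p = 0.209). Mttp, which loads fat onto lipoproteins, had 68.2, 138, 93.2 and 130 CPM in DMH, against 191, 169, 164 and 181 CPM in DM (-0.72 ± 0.23, adjusted p = 0.137).

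Gene type and gene properties moved with the comparison. Processed pseudogenes, copies of mature mRNAs, were lower in DMH, with a median of -0.34 over 829 genes and 23.9% above 0. Long intergenic RNAs had a median of 0.30 over 334 genes, antisense genes 0.33 over 307, and processed transcripts 0.41 over 177, against 0.03 for 12467 protein-coding genes. Nuclear non-coding genes took 2.28% ± 0.454 of the nuclear counts in DMH and 1.58% ± 0.144 in DM (SD, n = 4 each, two-sided exact permutation p = 0.0571, or 0.286 adjusted over 5 shares). In 5 equal bins of GC content the medians of protein-coding genes were -0.12, -0.05, 0.00, 0.12 and 0.21 in increasing order. In bins of increasing level they were 0.27, 0.10, 0.01, -0.03 and -0.18. The list medians above that hold abundant genes therefore stand beside a background that is itself below 0. Lists of genes of low level stand beside a background above 0. With the GC trend removed, the medians of the nuclear oxidative phosphorylation, chaperone and proteasome lists stayed below 0. No fit removed the trend with level. The part of these properties in the list values was not tested further.

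**Figure D5:**
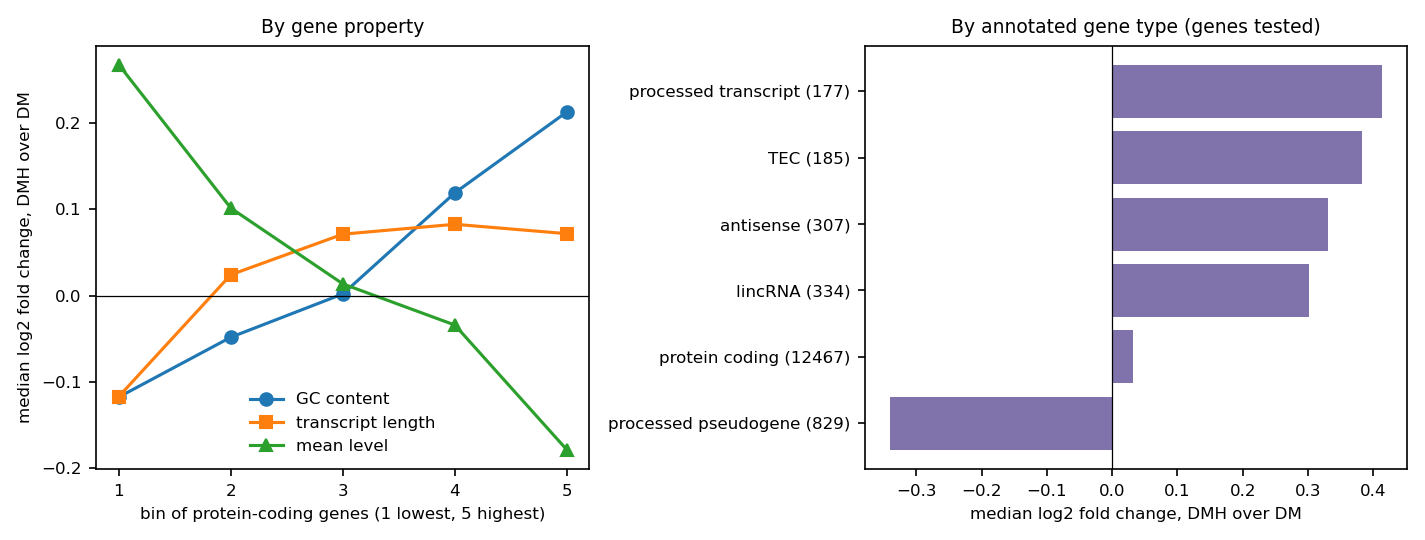
Median log2 fold change, DMH over DM. The left panel gives 5 equal bins of protein-coding genes by GC content, transcript length and mean level, and the right panel annotated gene types with the number of genes tested. Medians increase with GC content and decrease with level, and processed pseudogenes lie at -0.34 while the non-coding transcript types drawn lie at 0.30 to 0.41. Not all non-coding types are drawn, and some of the others lie outside that range.

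Among named non-coding genes, Snhg20, a small nucleolar RNA host gene, had 69.2, 43.8, 40.3 and 32.3 CPM in DMH, against 22.4, 18.8, 19.0 and 10.2 CPM in DM (1.40 ± 0.28, adjusted p = 0.106). Neat1, the scaffold of nuclear paraspeckles, had 623, 1077, 1357 and 943 CPM in DMH, against 390, 702, 377 and 708 CPM in DM (0.88 ± 0.31, adjusted p = 0.157). Of 12 tested nuclear long non-coding RNAs 10 were higher, with a median of 0.35. Gm10132, a pseudogene that shares its words with Rpl23a, had 42.2, 40.5, 47.5 and 52.0 CPM in DMH, against 67.4, 62.6, 72.5 and 66.4 CPM in DM (-0.56 ± 0.14, adjusted p = 0.115).

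Markers of other liver cells were compared last, since in whole tissue fewer cells of a type and less RNA per cell cannot be told apart. Of the 12 hepatocyte markers 10 were lower, with a median of -0.36. All 13 Kupffer cell markers, of the resident macrophages, had fold changes above 0, with a median of 0.92 that was 0.60 without DMH4, and none had groups that did not overlap. Their sum was 223 to 766 CPM in DMH and 186 to 344 CPM in DM. Clec4f, a lectin of Kupffer cells, had 203, 109, 57.1 and 135 CPM in DMH, against 44.0, 72.5, 60.4 and 29.5 CPM in DM (1.29 ± 0.35, adjusted p = 0.117). DMH3 was the DMH library within the DM range. Cell cycle genes were higher in 17 of 22 (77.3%), with a median of 0.47. As background, the least abundant bin of protein-coding genes had a median of 0.27, with 68.1% of its genes higher. The next bin had a median of 0.10, with 58.8% higher. The part of level in the cell cycle values was not tested. Mki67, a proliferation marker, had 21.3, 2.50, 1.41 and 5.98 CPM in DMH, against 1.69, 2.41, 2.09 and 1.27 CPM in DM (2.06 ± 0.70, adjusted p = 0.151), and DMH1 carried most of it. DMH1 also had the highest erythroid marker sum among the DMH libraries, within ranges of 162 to 1580 CPM in DMH and 115 to 1692 CPM in DM. Neutrophil markers summed to 1.71 to 19.6 CPM in DMH and 2.42 to 5.65 CPM in DM. The part of these cells in the results was not tested.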

How the data were processed

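RNA-seq libraries of mouse liver were analysed from the gene counts that the authors deposited. Per the series' design text, reads were checked with FastQC 0.11.8, trimmed with Trimmomatic 0.36, mapped with Hisat2 2.1.0 (reference GRCm38), and StringTie gave the count of each gene. The same text describes the deposited FPKM values as computed by the authors after TMM normalization, and they were used in 2 alternatives only. Whether counting used strand is not given in the sources used here.

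All 12 libraries entered 1 edgeR 4.0.16 model (R 4.3.3, limma 3.58.1) with a mean per group and 9 residual degrees of freedom. TMM factors, robust quasi-likelihood F tests and filterByExpr (minimum count 10, minimum total 15) left 14643 of 54838 genes. The p-values were adjusted over these genes by the Benjamini-Hochberg method. Each SE is the size of the log2 fold change over the square root of F. Scripts used Python 3.11.15, pandas 2.3.3 and matplotlib 3.10.9, and the tests were tested on simulated data. Sequences came from the GRCm38 genome and RefSeq, and 25-base words shared between transcripts marked shared reads.

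The comparison, the 56 gene lists and the genes named were chosen with earlier results of these data known, and lists are described by counts and medians, with no set test. Named genes are all called genes, the 10 next in rank each way as defined in the text, 14 preset genes of liver metabolism, up to 3 members of each described list with the lowest p in the direction of its median and 1 in the other, relatives of called genes, and the 5 non-coding genes of lowest p each way. Of these, 3 genes are not reported here. Hspa5 was added after its values were seen. Alternatives were RLE size factors, other filters, DESeq2 1.42.0, limma on log2(FPKM + 1) and log2(FPKM + 0.1), the 8 DMH and DM libraries alone, a replicate block, the mitochondrial percentage as a covariate, mitochondrial genes removed, each library left out, and a rule of fold 2 at an unadjusted p under 0.05. Removal of a GC trend and leaving out DMH1 and DMH3 together were chosen after seeing the data. Same-numbered DMH and DM libraries did not deviate together (correlations of -0.0462 to 0.112), so the numbers were not taken to pair them. Intervals on count ratios are 95% and cover counting error only.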

Additional observations from a re-analysis of the deposited data

Results flagged for a closer look

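In 27 of 356 groups of 4 libraries, over the named genes, 1 library stood farther from the other 3 than a 95% limit allows. Chance flags about 1 in 20 groups. In DMH, DMH1 was the library apart for Ube2g1 (17.4 CPM, low), Uqcrc2 (57.4 CPM, low), Pcna (6.52 CPM, low) and Slc4a1 (21.7 CPM, high). DMH3 was apart for Cyp7a1 (348 CPM, high), Cry2 (43.5 CPM, high) and Gzmb (0.563 CPM, low). DMH4 was apart for Alas1 (223 CPM), Rpl19 (31.5 CPM) and Hspa5 (183 CPM), each time high and on the side of DM.

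In DM, DM1 was apart for Sftpb (0.0676 CPM, high), Cyp7a1 (38.2 CPM, low) and Slc10a1 (189 CPM, high). For Sftpb this was 1 count against 0 in DM2 to DM4, where any count passes the limit, so that flag carries no information. DM2 was apart for Glud1 (542 CPM, low), Akt2 (9.81 CPM, low), Pdia6 (153 CPM, high), Rpph1 (1.69 CPM, high) and Slc4a1 (2.33 CPM, high). DM3 was apart for Pcgf1 (9.64 CPM, high), Srebf1 (101 CPM, high), Fasn (149 CPM, high), Acaca (46.0 CPM, high) and Ppp1r3b (67.6 CPM, low). DM4 was apart for BC024386 (282 CPM, high), Cidea (14.1 CPM, high), Klf1 (2.93 CPM, high) and Hspa5 (120 CPM, low). Srebf1, Fasn and Acaca, which encode a regulator and 2 enzymes of fat synthesis, were high together in DM3.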

How the results depend on the processing

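The count of 5 called genes (4 higher, 1 lower) was 12 (10 and 2) with a stricter filter, 673 of 13509 genes (4.98%, 369 and 304) by DESeq2, 2 (2 and 0) when the mitochondrial percentage entered the model, and 749 (518 and 231) for fold 2 at an unadjusted p under 0.05. It ranged from 1 to 155 when 1 library was left out: 1 without DM1 or DMH2, 2 without DM3 or DM4, 3 without DMH1, CTL3 or CTL4, 11 (6 and 5) without DMH3 and 155 (101 and 54) without DMH4. With the replicate number as a block 1 gene was called, Gm24447, and Gm22068 had an adjusted p of 0.11. The labels do not say whether the numbers pair the libraries. The other alternatives gave 4 to 7 calls. The difference in mitochondrial percentage was 3.48 to 9.14 points when 1 library was left out, against 5.96. Signs turned for Alad (-0.14 to 0.051 over single libraries left out, highest without DMH3), Fasn (-0.44 to 0.45, highest without DM3), Cpt1a (0.043 without DMH1 and DMH3) and mt-Nd1 (-0.0022 with the mitochondrial percentage, which includes the counts of mt-Nd1 itself). They also turned for Cyp7a1 (-0.020 with the block, -0.12 and -0.16 with limma on log2(FPKM + 1) and log2(FPKM + 0.1), -0.97 to 0.91 over single libraries left out, lowest without DMH3, and -0.93 without DMH1 and DMH3) and for Ppargc1a (-0.37 to 0.76, lowest without DMH3, and -0.78 without DMH1 and DMH3). The causes were not tested. The mitochondrially encoded list with mitochondrial genes removed, and the T and NK cell list with the stricter filter, gave no value. Genes of a few counts such as Sftpb are limited by depth.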

Other observations

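Ribosomal protein, splicing and plasma protein genes, which the text above leaves out, moved little or rested on single libraries. Of 39 cytosolic ribosomal proteins 30 had fold changes below 0, with a median of -0.19 that was -0.06 without DMH3 and -0.12 without DMH1. Rpl19, of the large subunit, had 19.3, 18.9, 20.9 and 31.5 CPM in DMH, against 30.4, 29.7, 37.5 and 36.2 CPM in DM (-0.56 ± 0.18, edgeR adjusted p = 0.143). Of 29 SR and hnRNP splicing factors 21 were higher, with a median of 0.20 that ran from -0.09 without DMH3 to 0.32 without DMH4. Clk4, a kinase of SR proteins, had 180, 182, 198 and 113 CPM in DMH, against 109, 127, 116 and 97.0 CPM in DM (0.58 ± 0.19, adjusted p = 0.143). The 23 complement and clotting factors had a median of 0.02, which ran from -0.01 without DMH4 to 0.18 without DMH3. F7, clotting factor VII, had 77.5, 89.8, 113 and 62.0 CPM in DMH, against 38.8, 42.7, 39.8 and 39.2 CPM in DM (1.09 ± 0.44, adjusted p = 0.195). Apolipoprotein and lipoprotein assembly genes were lower in 13 of 18, with a median of -0.31, or -0.15 without DMH3.

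Of the remaining cell markers, 11 of 13 stellate cell and fibroblast genes were higher, with a median of 0.46 that was 0.21 without DMH4. The 13 sinusoidal endothelial genes had a median of 0.13, which ran from -0.30 without DMH4 to 0.24 without DMH1. Of 14 T and NK cell markers 7 were tested, 5 higher and 2 lower. Their median was 0.57, or 0.27 without DMH4 and 0.98 without DMH1 and DMH3. All 14 summed to 5.12 to 16.2 CPM in DMH and 5.47 to 9.57 CPM in DM, so the groups overlapped. Among them Gzmb, a granzyme of cytotoxic lymphocytes, had 1.32, 1.36, 0.563 and 1.45 CPM in DMH, against 0.203, 0.563, 0.368 and 0.127 CPM in DM (1.89 ± 0.53, adjusted p = 0.12). These are low levels that rest on few reads. Akt2, the main AKT kinase of insulin action, had 35.9 and 41.3 CPM in DMH1 and DMH2 and 13.2 and 10.2 CPM in DMH3 and DMH4, against 10.6, 9.81, 10.5 and 10.5 CPM in DM (1.28 ± 0.37, adjusted p = 0.126). No label separates DMH1 and DMH2 from DMH3 and DMH4.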
